A study of Mus musculus with 6 samples.

Results

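The genes described here carry glucose into the cardiomyocyte and through glycolysis. They are the glucose transporters Slc2a1 (GLUT1) and Slc2a4 (GLUT4), the hexokinases Hk1 and Hk2, the muscle phosphofructokinase Pfkm, the aldolase Aldoa, Gapdh, the phosphoglycerate kinase Pgk1, and the lactate dehydrogenase subunits Ldha and Ldhb. The 10 genes were chosen by name, by a rule that used no measured value, from 56923 genes listed, and all 10 passed the filter on low counts together with 17212 genes in all.

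mRNA-Seq was performed on left ventricles (LVs) of male Lztr1 R409C/+ knock-in mice, a model of Noonan syndrome, and of Lztr1 +/+ mice (WT). There were 3 mice per group and 1 library per mouse, all at 12 weeks of age and all perfused with ice-cold buffer before the LV was taken. The allele was made with CRISPR/Cas9 in every cell of the animal, was heterozygous, and was held on a C57BL/6J background by repeated backcrossing. RNA came from bulk LV tissue, so the measurements do not separate cardiomyocytes from the other cells of the ventricle. A count per gene does not show a base substitution, so the genotype labels could not be checked against these data.

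Glucose enters cardiomyocytes down its concentration gradient, through GLUT1 at the resting membrane and through GLUT4 that insulin and contraction move from internal vesicles to the surface. Hexokinase then traps it as glucose 6-phosphate, phosphofructokinase commits it to glycolysis, and aldolase, GAPDH and phosphoglycerate kinase carry it towards pyruvate. Lactate dehydrogenase interconverts pyruvate and lactate, and the adult heart, which draws most of its energy from fatty acids, is rich in the LDHB (heart) subunit, whereas skeletal muscle is rich in LDHA.

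Total counts per library were between 66130887 and 72641124. The share of counts from the mitochondrial genome was 13.8% in WT mouse 3 and 45.4% in mutant mouse 1, and lay between 29.7% and 37.3% in the other 4 libraries, so these 2 libraries stood apart at opposite ends. The summed level of 8 cardiomyocyte markers was between 34979 and 39086 CPM (counts per 1000000 of effective library size) in WT and was 24216, 31995 and 39530 CPM in mutant mice 1, 2 and 3. The sum of 6 endothelial markers was 571 to 710 CPM in WT and 477, 670 and 828 CPM in mutant mice 1 to 3, that of 4 smooth muscle markers was 74.5 to 78.9 and 46.6, 69.3 and 80.4 CPM, and that of 6 fibroblast markers was 621 to 808 and 664, 801 and 748 CPM. Of 5 adipocyte markers, Retn and Lep had no count and the list summed to at most 0.249 CPM. Of 4 atrial markers, Myl7, Sln and Myl4 were each at most 0.570 CPM in every library, Myl7 and Sln with no count in WT, and Nppa was at 37.7 to 76.0 CPM in WT and 52.9 to 106.5 CPM in mutants. All 6 macrophage markers had a positive log2 fold change, with sums of 179 to 208 CPM in WT and 279 to 390 CPM in mutants, and so did all 6 red cell markers, with overlapping sums of 579 to 1479 and 1043 to 2626 CPM. Bulk RNA cannot tell apart fewer cells of a type from less RNA per cell, and the part of these differences in the results below was not tested.

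The main observation was that transcripts of glucose uptake and glycolysis did not differ detectably between Lztr1 R409C/+ and WT LVs. None of the 10 genes passed an adjusted p of 0.05 when all genes tested were fitted together by edgeR's quasi-likelihood method (Benjamini-Hochberg adjusted p between 0.590 and 0.977), where 7 genes in all did (0.0407%). At an unadjusted p under 0.05 the count was also 0 in either direction, beside 5.77% of all genes higher and 2.86% lower, and DESeq2 placed 1 of the 10, Gapdh, under that limit and none past the adjusted one. The log2 fold change was negative for 8 genes and positive for Gapdh and Ldha, with a median of -0.15 for the 10 and 0.01 for all genes tested. The mutant values lay above every WT value for 1 gene, Gapdh (8.3% of all genes), and below every WT value for 1 gene, Ldhb (7.23%). Since biological variation was about 26.1% per gene, the confidence intervals below show the sizes of change that remained possible.

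**Figure D1:**
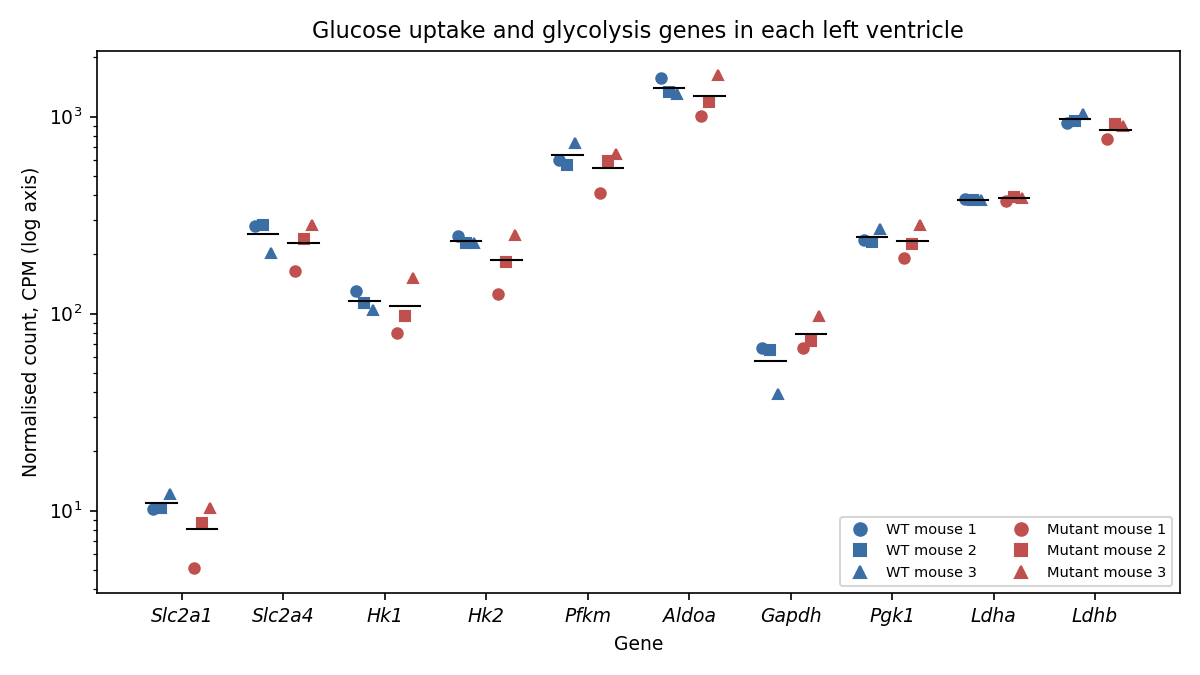
Normalised count (CPM, log axis) of the 10 genes in each of 3 WT and 3 mutant mice, with the group mean as a black line. Mutant mouse 1 is the lowest mutant for all 10 genes, and the groups separate only for Gapdh, by a narrow gap, and for Ldhb.

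Per kilobase of the canonical transcript, which allows levels to be compared between genes, the 10 genes spanned a wide range in WT LVs. Of the rows as counted, Aldoa was the highest at 928 ± 92.7 CPM per kb (SD, n = 3), followed by Ldhb at 633 ± 32.6, Ldha at 238 ± 1.67, Pfkm at 159 ± 22.0, Pgk1 at 134 ± 11.0, Slc2a4 at 97.6 ± 17.1, the Gapdh row at 40.2 ± 11.1, Hk2 at 30.1 ± 1.45, Hk1 at 27.0 ± 3.14 and Slc2a1 at 2.45 ± 0.236. The ranges of WT mice overlapped between the neighbours Pfkm and Pgk1, Gapdh and Hk2, and Hk2 and Hk1, and the other neighbours did not overlap. The place of Gapdh in this order is uncertain, since its row held a small share of the counts of Gapdh and its near-identical copies, described below, and summed with these copies it was at 1342 ± 295 CPM per kb, above Aldoa in each WT mouse although the ranges overlapped. With the length of all annotated exons in place of the canonical transcript, Pgk1 (109 CPM per kb) moved above Ldha (79.8), and Hk2 (28.4) and Hk1 (13.2) moved above Gapdh (7.98).

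Of the transporters, Slc2a1, which encodes GLUT1, was measured at 10.2, 10.4 and 12.1 CPM in WT mice 1 to 3 and at 5.11, 8.69 and 10.4 CPM in mutant mice 1 to 3. The highest mutant lay level with the middle WT mouse, so the groups overlapped. The fold change was 0.739 (log2 -0.44, SE 0.24, 95% confidence interval -0.96 to 0.09, edgeR adjusted p = 0.650), the lowest of the 10. Slc2a1 (chromosome 4, GRCm39 118965908 to 118996365) had between 283 and 1148 counts, the fewest of the 10 genes.

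Slc2a4, which encodes the insulin-responsive GLUT4, was measured at 279, 282 and 203 CPM in WT and at 164, 240 and 282 CPM in mutants. Mutant mouse 3 matched the highest WT mouse, and WT mouse 3 lay below both mutant mice 2 and 3. The log2 fold change was -0.15 (SE 0.21, interval -0.62 to 0.31, edgeR adjusted p = 0.882). Slc2a4 lies at chromosome 11, 69831006 to 69839070, and overlaps Ybx2 on the opposite strand, which had counts equal to 2.74% of those of Slc2a4.

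Hexokinase 1, the isoform of most tissues, was measured as Hk1 at 130.5, 112.6 and 104.1 CPM in WT and at 79.9, 96.9 and 151.7 CPM in mutants, so the mutants held both the lowest and the highest of the 6 values. Hk2, the insulin-responsive isoform of heart, muscle and fat, was measured at 247.5, 227.9 and 228.1 CPM in WT and at 125.8, 183.8 and 250.7 CPM in mutants. The WT values of Hk2 lay close together (SD 11.3 CPM) and the mutant values spread widely (SD 62.5 CPM). The log2 fold change was -0.08 (SE 0.22, interval -0.56 to 0.40) for Hk1 and -0.33 (SE 0.22, interval -0.81 to 0.15, edgeR adjusted p = 0.717) for Hk2.

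Pfkm, the muscle isoform of the committing enzyme, was measured at 603.5, 569.6 and 736.0 CPM in WT and at 410.6, 591.5 and 642.2 CPM in mutants, with a log2 fold change of -0.22 (SE 0.20, interval -0.65 to 0.22). Aldoa, which splits fructose 1,6-bisphosphate and is the major aldolase of muscle, was measured at 1563, 1340 and 1305 CPM in WT and at 1011, 1185 and 1617 CPM in mutants, with a log2 fold change of -0.14 (SE 0.21, interval -0.60 to 0.31). Both overlapped between groups, since mutant mouse 3 lay within or above the WT values. Pgk1, which makes the first ATP of the pathway, was measured at 236.0, 230.7 and 267.7 CPM in WT and at 190.5, 226.1 and 281.4 CPM in mutants, with a log2 fold change of -0.07 (SE 0.18, interval -0.46 to 0.31).

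The Gapdh row needed separate treatment, because the mouse genome holds many processed pseudogenes of Gapdh, intronless copies of its mRNA. A search of the annotated transcripts found 72 genes whose transcript matched Gapdh at 95% identity or more. The following 120 bases, positions 103 to 222 of the 1002 coding bases, lie in a single exon of Gapdh (GRCm39 chr6:125140201-125140320, minus strand) and are shown to let a reader see how little separates the gene from its copies. Below it stand the same stretch of the most highly counted copy, Gm7336 (chr7:51396547-51396666, plus strand), of Gm12671 (chr4:91740685-91740804, minus strand) and of Gapdh-ps15 (chrY:38575230-38575349, plus strand), with differences from Gapdh in capitals.
Gapdh: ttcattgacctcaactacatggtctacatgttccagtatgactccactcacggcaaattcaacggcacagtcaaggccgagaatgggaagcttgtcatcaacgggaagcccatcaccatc
Gm7336: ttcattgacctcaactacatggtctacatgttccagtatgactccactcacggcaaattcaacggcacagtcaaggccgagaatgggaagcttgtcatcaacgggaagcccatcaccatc
Gm12671: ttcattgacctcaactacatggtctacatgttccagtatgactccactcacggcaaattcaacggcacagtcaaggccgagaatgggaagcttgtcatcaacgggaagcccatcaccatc
Gapdh-ps15: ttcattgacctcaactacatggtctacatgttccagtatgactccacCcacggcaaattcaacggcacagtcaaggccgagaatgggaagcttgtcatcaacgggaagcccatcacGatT

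Over the whole coding sequence Gm7336 and Gm12671 had 0 differences from Gapdh and Gapdh-ps15 had 5, of which 3 fall in this stretch (T48C, C117G and C120T, Gapdh base given before the position, counted from the stretch's 5′ end). A read from these bases cannot be assigned to the gene or to either identical copy.

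The Gapdh row itself was measured at 66.8, 65.7 and 39.0 CPM in WT and at 67.1, 72.7 and 97.0 CPM in mutants, and it held only 2.72% to 3.19% of the counts of Gapdh and its copies in WT and 3.45% to 3.63% in mutants. The copy Gm7336 was measured at 269, 247 and 164 CPM in WT and at 230, 226 and 308 CPM in mutants, and 10 copies had a higher mean than Gapdh. Summed with its copies, Gapdh reached 2229, 2056 and 1433 CPM in WT and 1948, 2009 and 2673 CPM in mutants, between 27.6 and 36.7 times the Gapdh row. If a read that fits several copies was counted at more than 1 of them, which the sources used here do not state, this sum is too high.

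Neither quantity passed the test. The Gapdh row had a log2 fold change of 0.47 (SE 0.22, interval -0.01 to 0.94, unadjusted p = 0.0550 and adjusted p = 0.590 by edgeR), and the gap between the lowest mutant and the highest WT mouse was smaller than counting error, with Poisson intervals of 65.0 to 69.3 and 64.8 to 68.8 CPM. Its log2 fold change was 0.25 without WT mouse 3 and 0.29 without mutant mouse 3. The sum with the copies had a log2 fold change of 0.21 (SE 0.23, edgeR adjusted p = 0.834) and overlapped between groups. Of the 46 copies that passed the filter, 44 had a positive log2 fold change, with a median of 0.24, and none passed the adjusted threshold. Near-identical copies may share reads, so they are not treated here as separate measurements. WT mouse 3, which has the lowest mitochondrial share, was the lowest of all 6 mice for both quantities, and Iffo1, on the opposite strand at the Gapdh locus, had counts equal to 13.4% of those of the Gapdh row.

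**Figure D2:**
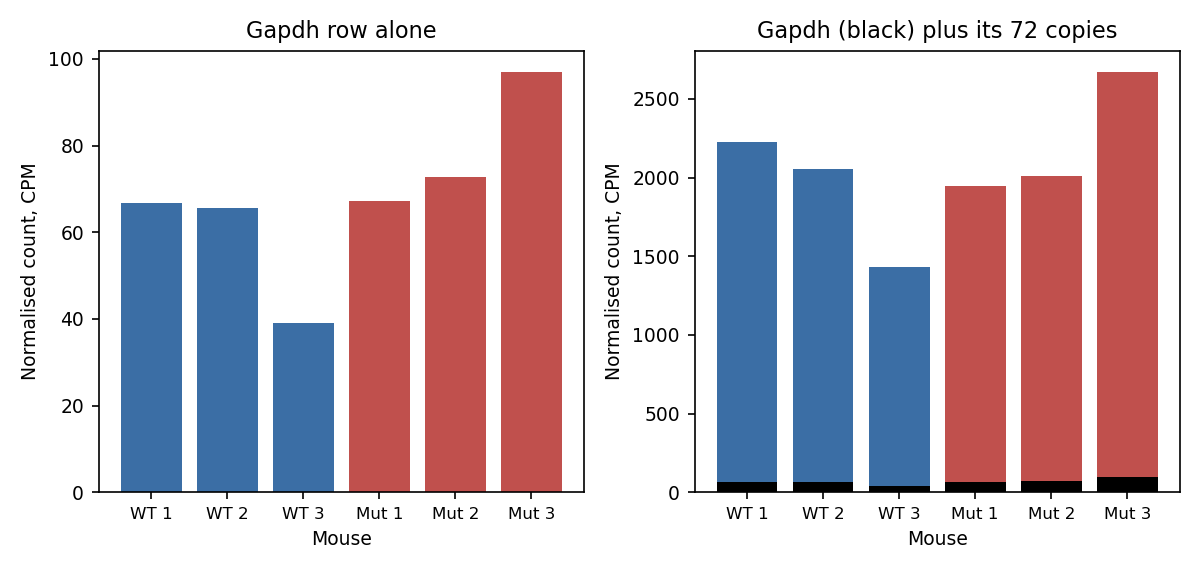
Normalised count (CPM) in each mouse for the Gapdh row alone and for Gapdh (black) with its 72 near-identical copies, on axes that start at 0. The Gapdh row is 2.72% to 3.63% of the sum, and WT mouse 3 is the lowest in both panels.

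The other 3 genes with near-identical copies kept nearly all counts in their own row. The share was 97.5% to 98.0% for Pgk1 and at least 99.8% for Ldha and for Ldhb. No copy that met the limits was found for the remaining 6 genes.

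Lactate dehydrogenase subunit A was the steadiest of the 10 transcripts. Ldha was measured at 381.3, 376.8 and 376.5 CPM in WT and at 373.0, 392.9 and 387.5 CPM in mutants, all within a narrow and overlapping range, with a log2 fold change of 0.02 (SE 0.15, interval -0.30 to 0.35, edgeR adjusted p = 0.977). Ldhb, the heart subunit, was measured at 931.7, 946.5 and 1025 CPM in WT and at 770.8, 911.7 and 891.2 CPM in mutants. Every mutant lay below every WT mouse, and the fold change was 0.887 (log2 -0.17, SE 0.17, interval -0.53 to 0.19, edgeR adjusted p = 0.814).

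**Figure D3:**
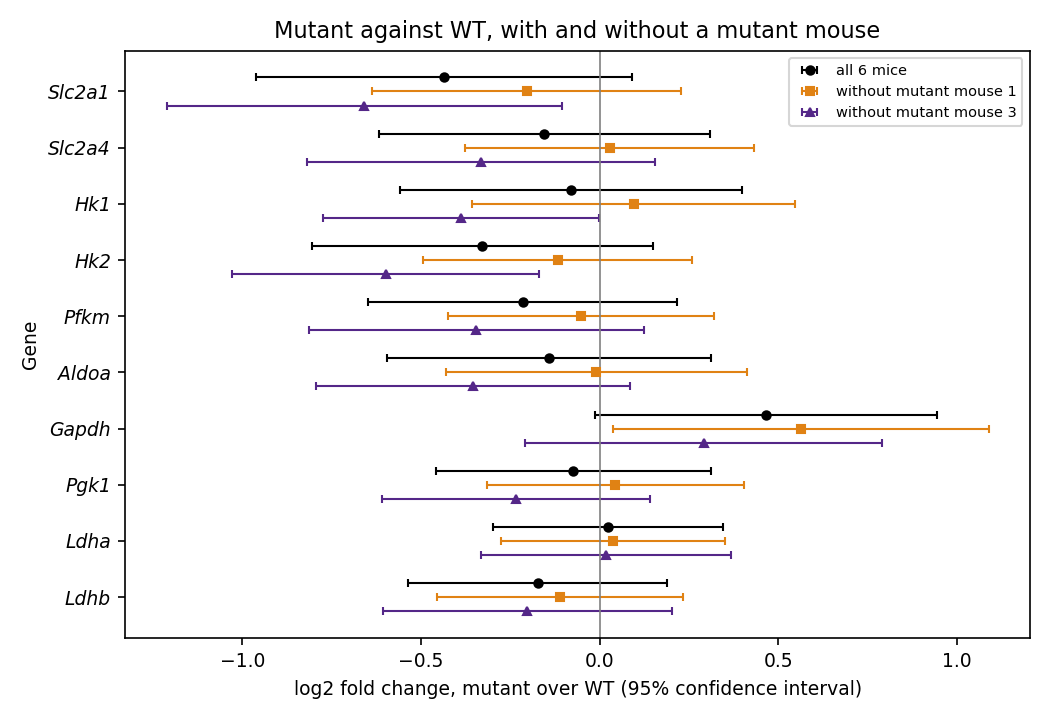
Log2 fold change of Lztr1 R409C/+ over WT with its 95% confidence interval for each gene, from all 6 mice, without mutant mouse 1 and without mutant mouse 3. With all 6 mice each interval includes 0, and leaving out either mutant mouse shifts most genes in opposite directions.

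Mutant mouse 1 was the lowest mutant for 10 of 10 genes and the lowest of all 6 mice for 9 of 10, and over all genes tested it was the lowest mutant for 35.9% and the lowest mouse for 20.1%. Mutant mouse 3 was the highest mutant for 8 of the 10, beside 35.8% of all genes tested, and mutant mouse 2 for Ldha and Ldhb. The 10 genes summed to 4450, 4162 and 4296 CPM in WT and to 3198, 3909 and 4612 CPM in mutants. Without mutant mouse 1 the median log2 fold change of the 10 was 0.01, with 5 genes on either side of 0, and Slc2a4 (0.03), Hk1 (0.10) and Pgk1 (0.04) turned positive, while Slc2a1 was at -0.20 and Hk2 at -0.12. With that mouse left out, Gapdh (log2 0.56) had an unadjusted p of 0.0380 in edgeR's test, with an adjusted p of 0.631. Without mutant mouse 3 the median was -0.34. Slc2a1 (log2 -0.66), Hk1 (-0.39) and Hk2 (-0.60) then had unadjusted p of 0.0240, 0.0495 and 0.0111 in edgeR's test. Their adjusted p were 0.581, 0.643 and 0.504. The share of all genes under an unadjusted p of 0.05 in these fits is not given here. The mitochondrial share (45.4%), the macrophage sum (390 CPM) and the red cell sum (2626 CPM) of mutant mouse 1 were each the highest of the 6 libraries, and its cardiomyocyte (24216 CPM), endothelial (477 CPM) and smooth muscle (46.6 CPM) sums were each the lowest, and their part in its low values was not tested.

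Ratios of isoforms within a mouse do not depend on the scaling of libraries, and 3 were compared with a two-sided exact permutation test, whose smallest possible p with 3 mice against 3 is 0.1. The ratio of Slc2a1 to Slc2a4 counts was 0.0367, 0.0368 and 0.0596 in WT and 0.0311, 0.0362 and 0.0368 in mutants, which overlapped (log2 difference -0.32, exact p = 0.2, adjusted over the 3 ratios 0.2). The higher WT value belonged to WT mouse 3, and without it the log2 difference was -0.09.

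The ratio of Hk1 to Hk2 was 0.527, 0.494 and 0.456 in WT and 0.636, 0.527 and 0.605 in mutants (log2 difference 0.26, exact p = 0.1, adjusted 0.15). WT mouse 1 and mutant mouse 2 were equal within counting error, with exact intervals of 0.513 to 0.541 and 0.512 to 0.543, so these groups met at the edge. The ratio of Ldha to Ldhb was 0.409, 0.398 and 0.367 in WT and 0.484, 0.431 and 0.435 in mutants. All mutants were above all WT mice, with a log2 difference of 0.20 (exact p = 0.1, adjusted 0.15), which is the smallest p that this design allows. The log2 difference was 0.15 without mutant mouse 1, whose ratio was the highest.

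**Figure D4:**
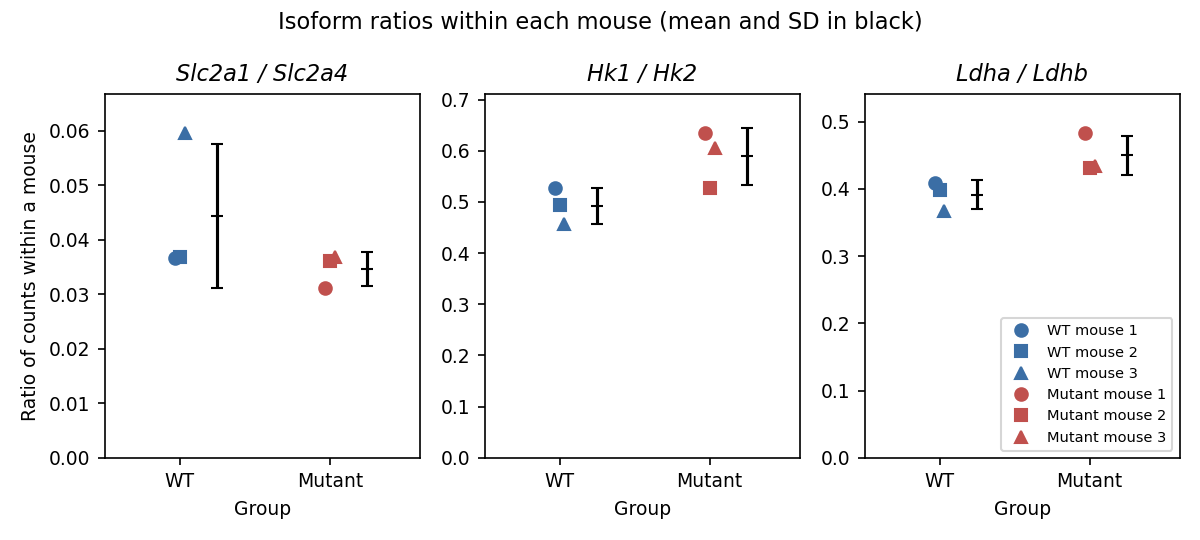
Ratio of counts within each mouse for the transporter, hexokinase and lactate dehydrogenase pairs, on axes that start at 0, with mean and SD in black (n = 3). The Ldha to Ldhb ratios of the mutants, 0.431 to 0.484, lie above those of WT, 0.367 to 0.409.

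The upstream sequences of Ldha and Ldhb are shown side by side as a description of the pair, for which no difference between the groups passed a test. Sequences are from RefSeq (build GRCm38.p6), where 9 of the 10 genes matched by symbol and Slc2a4 was not used here. The 250 bases before a transcription start of Ldha (chr7:46845554-46845803, plus strand) and of Ldhb (chr6:142507958-142508207, minus strand) are given with the letters ACGTG, a form of the core bound by hypoxia-inducible factors and part of the E-box CACGTG, in capitals on either strand.
Ldha: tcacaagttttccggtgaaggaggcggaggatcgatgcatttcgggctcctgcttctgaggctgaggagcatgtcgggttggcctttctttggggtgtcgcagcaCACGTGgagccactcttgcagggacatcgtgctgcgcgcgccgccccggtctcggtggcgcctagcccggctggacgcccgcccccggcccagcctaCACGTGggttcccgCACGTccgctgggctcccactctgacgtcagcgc
Ldhb: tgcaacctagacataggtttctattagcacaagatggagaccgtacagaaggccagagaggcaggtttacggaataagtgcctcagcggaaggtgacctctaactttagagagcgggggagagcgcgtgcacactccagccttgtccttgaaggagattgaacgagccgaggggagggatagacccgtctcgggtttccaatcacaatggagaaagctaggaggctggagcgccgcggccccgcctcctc

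The Ldha window held 5 matches to ACGTG over both strands, where each CACGTG counts on both, and the window of Ldhb held 0. The letters GCGTG, another form of the core, were not searched for. They occur in the Ldhb window and in windows of Gapdh and Hk1, so 0 matches does not mean that the core is absent. A further listed start of Ldha also had 0. Matches to ACGTG were found for 6 of the 9 genes (Slc2a1, Hk2, Pfkm, Aldoa, Pgk1 and Ldha), beside 18.5% of the 27025 genes in the table. A gene was counted if any of its listed starts had a match, and Pfkm has 4 listed starts and Aldoa 3. Genes with more starts have more chances of a match, so the 2 shares are not strictly alike. Of the 32851 single windows, 16.6% had a match. A match describes letters, not binding.

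Genes around the 10 were read from 7 pathway lists, and none of their members passed the adjusted threshold. Of 9 tested other glucose transporters, 3 were higher and 6 lower, and 1 was higher at an unadjusted p under 0.05, beside 5.77% of all genes. That gene, Slc2a9, a urate transporter, had 0.892 ± 0.499 CPM in WT and 1.92 ± 0.525 in mutants (SD, n = 3, edgeR adjusted p = 0.502). Slc2a12 (GLUT12) had 9.59 ± 1.86 and 7.19 ± 0.428 CPM (adjusted p = 0.591 by edgeR).

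The other glycolytic enzymes were evenly divided, with 8 of 16 higher, 8 lower and a median log2 fold change of -0.01.

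Of the regulators of flux, 2 of 9 were higher and 7 lower, and none had an unadjusted p under 0.05. Prkaa2, the main catalytic AMPK subunit of heart and muscle, had 219 ± 21.8 CPM in WT and 174 ± 22.2 in mutants (log2 -0.33), and Pfkfb1, which makes and degrades fructose 2,6-bisphosphate, had 4.42 ± 1.03 and 3.06 ± 0.477 CPM. Among 19 genes of pyruvate and lactate handling, 6 were higher and 13 lower, with 2 lower genes under that limit, beside 2.86% of all genes. These were Slc16a1, the lactate and pyruvate transporter MCT1, at 303 ± 60.7 CPM in WT and 216 ± 35.4 in mutants (log2 -0.49, edgeR adjusted p = 0.515), and Pdp2, a pyruvate dehydrogenase phosphatase, at 25.9 ± 2.84 and 19.0 ± 4.52 CPM (log2 -0.45, edgeR adjusted p = 0.554).

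Glycogen metabolism had the lowest median of the 7 lists, -0.25, with 4 of 17 genes higher, 13 lower and 5 lower at an unadjusted p under 0.05, beside 2.86% of all genes. Gbe1, the branching enzyme, had 53.4, 56.7 and 58.9 CPM in WT and 38.8, 46.4 and 37.6 CPM in mutants. Every mutant lay below every WT mouse, and the log2 fold change was -0.46 with an edgeR adjusted p of 0.422. Also under the limit, and named after their values were seen, were the phosphorylase kinase subunits Phka1 (log2 -0.51) and Phka2 (-0.39) and Ugp2 (-0.46), which makes UDP-glucose.

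Of 14 genes of GLUT4 trafficking, 5 were higher and 9 lower, and 1 higher and 2 lower genes had an unadjusted p under 0.05, beside 5.77% and 2.86% of all genes. Tbc1d4 (AS160), the Akt substrate that holds GLUT4 vesicles inside the cell until phosphorylated, had 108, 107 and 108 CPM in WT and 63.6, 94.3 and 74.9 CPM in mutants, without overlap (log2 -0.47, edgeR adjusted p = 0.471). Lnpep, the aminopeptidase of GLUT4 vesicles, was the other lower gene (log2 -0.42) and was named after its values were seen. Rab13, a small GTPase of vesicle traffic, had 0.842 ± 0.109 CPM in WT and 1.70 ± 0.640 in mutants (log2 1.02, edgeR adjusted p = 0.471). Of 14 transcription factors and their regulators, 4 were higher and 10 lower with none under the unadjusted limit, and Hif1a, the hypoxia-inducible factor subunit, had 116 ± 15.8 and 95.4 ± 11.7 CPM (log2 -0.28), while Egln3, a prolyl hydroxylase that marks it for degradation, had 90.5 ± 2.82 and 77.4 ± 4.27 CPM (log2 -0.23).

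**Figure D5:**
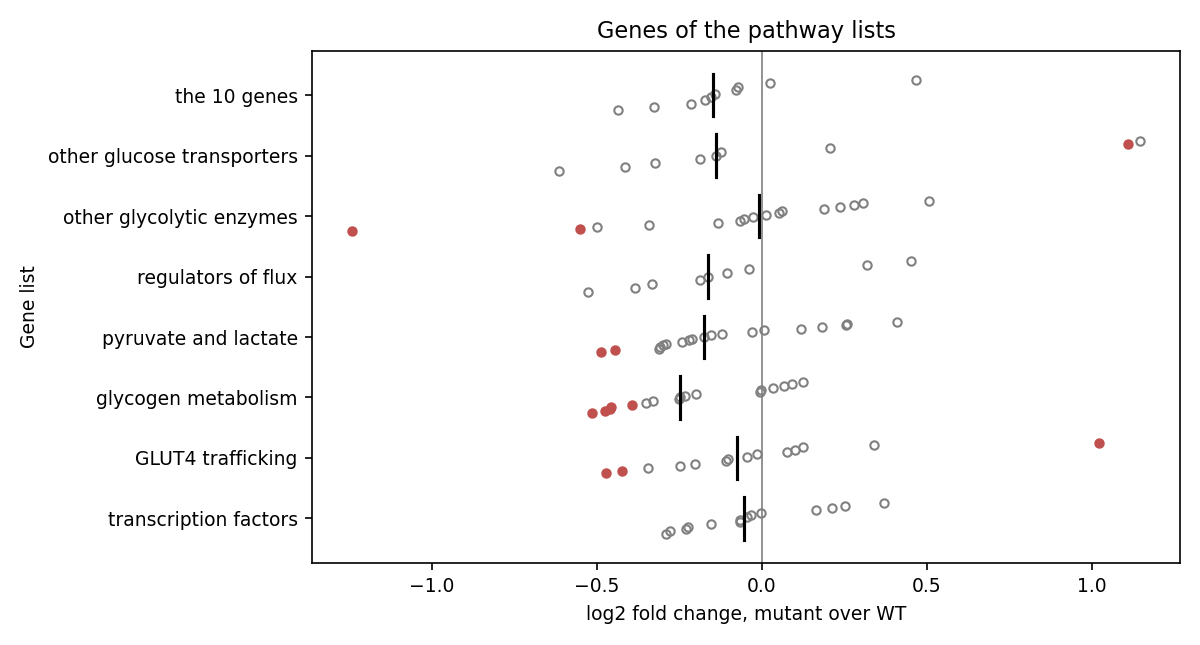
Log2 fold change of Lztr1 R409C/+ over WT for each tested gene of the 10 and of 7 pathway lists, with the median as a black bar and genes at an unadjusted p under 0.05 filled. Glycogen metabolism has the lowest median (-0.25) and 5 filled genes, all lower, and none of the points passed the adjusted threshold.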

How the data were processed

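The authors deposited counts per gene for 6 libraries, 1 per mouse, as whole numbers without normalization. Per the submitters' processing notes, Trim Galore, HISAT2, StringTie and edgeR were used with GRCm39. How reads with several matches were counted, and whether the library kit marked strand, is not given in the sources used here. Gene names were read from a deposited result table, whose own fold changes and p-values were not used.

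Genes were filtered by expression (edgeR 4.0.16 in R 4.3.3, filterByExpr, minimum count 10), scaled by TMM and fitted with the quasi-likelihood test, WT against mutant, without covariates. P-values were adjusted by Benjamini-Hochberg over 17212 genes, at a threshold of 0.05. CPM used effective library sizes. Isoform ratios were tested by exact permutation over mice. The test was checked on simulated data. P-values measure the spread between 3 mice per group.

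Copies were transcripts matched by BLAST+ 2.17.0 at 95% identity or more over 80% of the copy and 300 bases. Lengths and coordinates came from the GENCODE annotation of GRCm39. Counting intervals are 95% and cover counting error only.

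No measured value entered the rule for the 10 genes, but they and the lists were chosen with earlier results of these data known. All 10 genes were named, together with the 2 tested genes of smallest unadjusted p in each pathway list, of which some are not reported here. The alternatives were DESeq2 1.42.0, the edgeR exact test, other scalings and filters, omission of mitochondrial genes or of mice, a replicate block, 10 counts added to each gene for ratios, and, chosen after seeing the data, copies summed with their gene.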

Additional observations from a re-analysis of the deposited data

How the results depend on the processing

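No gene of the 10 passed the adjusted threshold under any of 17 alternatives, and the smallest adjusted p was 0.492, for Gapdh. The unadjusted p of Gapdh was under 0.05 in 7 of them, at log2 fold changes of 0.45 to 0.59. Over all 17 the lowest value was 0.21, when summed with its copies. Leaving out a mouse gave log2 fold changes of -0.33 to 0.0287 for Slc2a4, -0.39 to 0.0958 for Hk1 and -0.23 to 0.0439 for Pgk1, which changed sign without mutant mouse 1, and Hk1 also without WT mouse 1 (0.0148). With mutant mouse 1 and WT mouse 3 both left out, Hk1 (0.0319), Pfkm (0.0726) and Pgk1 (0.12) also turned positive. With library size alone as the scaling, Ldha was at -0.13, while the median of all genes tested moved from 0.01 to -0.14. The cause was not tested. Over all genes, DESeq2 called 143 higher and 15 lower and the edgeR exact test 127 and 13, against 6 and 1 in the quasi-likelihood test. The labels do not state that the replicate numbers pair the mice. Correlations of deviations between mice of the same number were -0.03, 0.06 and -0.10, and no mouse matched its own number best except number 2. These correlations cannot settle whether mice were paired by litter or preparation. With a replicate block the median of the 10 genes was -0.17, and none of the 10 genes passed the threshold. The log2 difference of the Ldha to Ldhb ratio, 0.20, is the same with the block by construction. Its exact permutation p was 0.25 with the block and 0.1 without. The permutation test of the ratios cannot reach 0.05 with 3 mice per group, with or without the block. Each of the 10 genes had at least 283 counts in every library.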
